A study of Mus musculus with 14 samples.

Results

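Broad domains of histone H3 lysine 9 acetylation (H3K9ac) were taken from the peak lists of 12 chromatin immunoprecipitation sequencing (ChIP-seq) libraries of regenerating mouse liver. Overlapping peaks of the 12 lists were merged into 57979 regions, and a region counted as a broad domain where every library had a peak in it and the merged width reached 6000 bp. Of the 57979 regions, 12375 had a peak in all 12 libraries (shared regions), and 1042 of these were broad domains. The domains were thus selected on their merged width and on having a peak in every library, and both are given here as a description. The choice did not use the d22 minus pbs difference itself. Merged width is taken over both groups, however, so a region can reach 6000 bp through the peaks of either group alone. At Llgl2, called lower below, d22 peaks ran from -1.39 to 3.12 kb of the domain's middle and pbs peaks from -3.12 to 3.01 kb. Tags and called length, tested below, are therefore not independent of the choice.

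The livers came from male C57BL6/J mice 2 to 3 months old and were taken 12 h after partial hepatectomy, in which much of the organ is removed and the remainder regrows. The study concerned the hypoglycemia that follows the operation and what delaying it does to the mark. The antibody was ab10812 (abcam), 6 libraries were titled d22 and 6 pbs, and the 2 pooled input libraries were not analysed here beyond their totals in the peak file headers. Title and treatment label disagree for every ChIP library: the d22 libraries carry a vehicle label (1/2 strength PBS) and the pbs libraries that of dextrose (22.5%). The pooled inputs titled d22 and pbs both carry the dextrose label. Libraries are therefore called by their titles, no treatment is assigned to either group, and all differences are d22 minus pbs. No label assigns the libraries to different mice, so the p-values here reflect spread between libraries that may be technical in origin.

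H3K9ac is laid down by histone acetyltransferases and removed by histone deacetylases, and it marks nucleosomes at active promoters and enhancers. At most active genes it forms a short block around the start site, on the nucleosomes that flank the gap where transcription begins. At some genes the block runs on into the gene body, and such wide blocks of active marks are known from genes that define a cell type. In liver the hepatocyte transcription factors and the genes of secreted plasma proteins are examples of highly transcribed, cell-type-defining genes.

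The promoters under these domains ranged from CpG-dense to nearly CpG-free, and 4 of them are shown because the results below turn on their domains. Each is the 300 bases from 250 before to 50 after the gene's start, read 5′ to 3′ on the gene's strand, from RefSeq on GRCm38.p6 (mm10 coordinates). Capitals mark each CG dinucleotide.
Rxra, chr2:27676951-27677250, plus strand: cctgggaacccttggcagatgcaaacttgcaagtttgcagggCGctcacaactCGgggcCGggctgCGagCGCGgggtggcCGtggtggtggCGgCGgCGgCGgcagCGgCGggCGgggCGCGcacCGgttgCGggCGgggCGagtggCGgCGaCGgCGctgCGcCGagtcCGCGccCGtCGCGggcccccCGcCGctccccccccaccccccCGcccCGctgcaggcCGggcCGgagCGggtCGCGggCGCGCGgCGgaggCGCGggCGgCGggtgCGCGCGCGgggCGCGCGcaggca
Fads2, chr19:10101454-10101753, minus strand: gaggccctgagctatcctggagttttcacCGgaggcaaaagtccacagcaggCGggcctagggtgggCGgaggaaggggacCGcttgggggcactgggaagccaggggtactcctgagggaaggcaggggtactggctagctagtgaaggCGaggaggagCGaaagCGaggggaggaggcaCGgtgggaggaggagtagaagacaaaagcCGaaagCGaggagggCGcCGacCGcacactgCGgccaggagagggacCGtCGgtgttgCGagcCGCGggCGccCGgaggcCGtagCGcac
Hnf4a, chr2:163546905-163547204, plus strand: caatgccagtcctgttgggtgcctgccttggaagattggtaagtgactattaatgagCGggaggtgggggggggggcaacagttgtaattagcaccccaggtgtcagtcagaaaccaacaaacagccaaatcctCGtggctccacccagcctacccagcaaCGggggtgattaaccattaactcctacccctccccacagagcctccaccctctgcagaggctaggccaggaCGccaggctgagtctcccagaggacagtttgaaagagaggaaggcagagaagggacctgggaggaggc
Thrsp, chr7:97417501-97417800, minus strand: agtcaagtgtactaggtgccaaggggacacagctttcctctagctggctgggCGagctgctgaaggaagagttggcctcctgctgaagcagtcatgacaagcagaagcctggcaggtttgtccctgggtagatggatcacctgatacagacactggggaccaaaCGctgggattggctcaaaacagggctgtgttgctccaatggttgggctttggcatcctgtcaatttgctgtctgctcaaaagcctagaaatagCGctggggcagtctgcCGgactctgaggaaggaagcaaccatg
The Rxra window holds 55 CG dinucleotides, that of Fads2 23, and those of Hnf4a and Thrsp 4 each. The Khk promoter is shown for the E-box CACGTG, the core of the sites bound by basic helix-loop-helix factors, which is in capitals.
Khk, chr5:30921309-30921608, plus strand: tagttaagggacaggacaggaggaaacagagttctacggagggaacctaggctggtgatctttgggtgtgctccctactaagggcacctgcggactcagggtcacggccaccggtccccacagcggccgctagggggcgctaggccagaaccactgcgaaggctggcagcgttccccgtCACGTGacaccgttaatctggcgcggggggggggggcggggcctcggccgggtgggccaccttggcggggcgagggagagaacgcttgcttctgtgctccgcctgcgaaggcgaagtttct
Khk encodes ketohexokinase, the enzyme that takes fructose into metabolism. Its domain had more tags in d22 in the test below. Among listed promoters of the other domains that passed, CACGTG was at Slc25a13, Gdf15, Cluh and Mafk, all lower in d22.

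The domains' promoters stood between those of the other shared regions and those outside shared regions in CpG content. The RefSeq table gave 978 promoter windows of 764 genes in domains, 9024 in other shared regions and 11261 in none of the shared regions. A ratio of observed to expected CpG over 0.6 was found in 61.0% of domain promoters, 79.7% of those in other shared regions and 20.7% of those in none. The median window held 19, 22 and 5 CG dinucleotides in the same order. The TATA sequence TATAAA, searched on the gene's strand only, was in 6.44% of domain promoters, 3.46% of those in other shared regions and 12.3% of those in none, against 8.26% of all 21263 windows. The following motifs were searched on both strands. The GC-box GGGCGG was in 61.8%, 68.1% and 27.3% (46.2% of all), and CACGTG in 9.41%, 10.8% and 5.28% (7.84% of all). The forkhead motif TGTTTAC was in 3.58%, 2.49% and 3.37% (3.01% of all). GGGCGG contains CG dinucleotides, so its share is not independent of the CpG ratio. A match describes letters in these windows and not the binding of a factor.

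Domains were a tail of the width distribution and not a separate class. They made up 8.42% of shared regions and 22.5% of their combined width (9.29 of 41.3 Mb), with a median of 7773 bp (quartiles 6642 and 9639 bp) against 2615 bp in the other shared regions. There were 231 domains of at least 10 kb, 67 of at least 15 kb and 18 of at least 20 kb. Just inside the limit lay the domains at Dap (6000 bp), Kcnk5 (6002 bp) and Hmgcs1 (6011 bp), and just outside it the regions at Palld (5998 bp) and Cfap126 (5994 bp). The merged width adds up bases called in any library. The longest run called in at least 6 libraries had a median of 4512.5 bp per domain, and the longest run called in all 12 had a median of 1749.5 bp. In 224 domains the run called in at least 6 libraries itself reached 6 kb, and in 5 domains the run called in all 12 did.

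**Figure D1:**
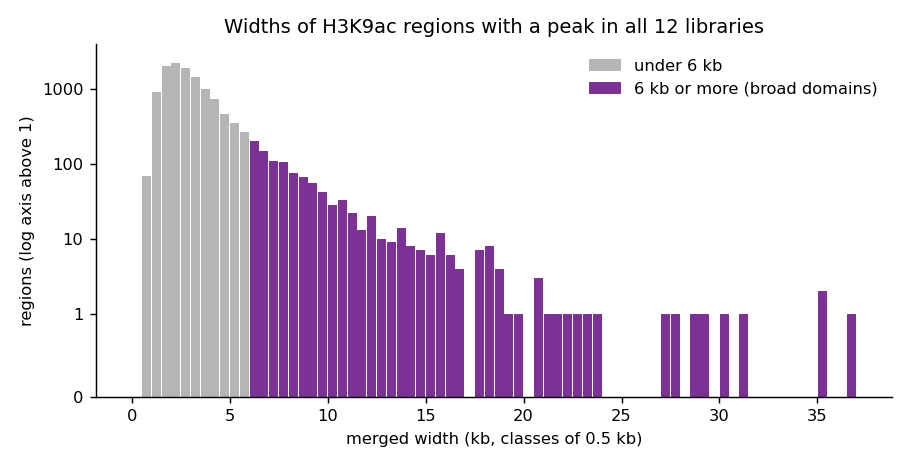
Merged widths of the 12375 regions with a peak in all 12 libraries, as number of regions (log axis) against width in kb. Bars of 6 kb or more, the broad domains, are purple and narrower ones grey. The counts fall without a break at the limit, and the widest region is 36767 bp.

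The domains were spread over the autosomes. Chromosome 11 held 112, chromosome 7 held 87 and chromosome 4 held 75. Relative to their shared regions, chromosome 15 had the highest share (63 of 519, 12.1%). The X chromosome had 1 domain among 250 shared regions (0.4%).

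A domain was usually called as several peaks, and how many differed between libraries. Each domain held 3.35 ± 0.505 peaks in d22 libraries and 3.21 ± 0.550 in pbs libraries (mean of the library means ± SD, n = 6 each), against 1.39 ± 0.112 and 1.39 ± 0.133 in the other shared regions. The lowest library means were 2.47 in d22 1 and 2.51 in pbs 6, and the highest was 3.92 in d22 5, so the groups overlapped. Where fewer peaks were called per domain, more of its width was covered: peaks covered 83.5% of the domain width in d22 1 and 85.8% in pbs 6, but 65.3% in d22 5. Of the 1042 domains, 463 had at least 2 peaks in every library and 0 had a single peak in every library. The number of domains called as 1 peak ran from 66 to 267 in d22 libraries and from 61 to 241 in pbs libraries.

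In the domains, called length and tags per kb differed between the group means by less than the SD of either group. Peaks covered 69.9 ± 8.21% of the domain width in d22 and 75.4 ± 9.33% in pbs (mean ± SD, n = 6 each), a mean called length of 6228 ± 732 and 6724 ± 832 bp per domain. The called parts held 69.4 ± 12.3 tags per kb in d22 and 74.2 ± 12.5 in pbs, against 64.3 ± 11.8 and 68.5 ± 12.96 in the other shared regions, unscaled for depth. Domains took 21.4 ± 2.06% of a d22 library's peak tags and 22.3 ± 0.666% of a pbs library's. The library d22 4, with the fewest tags and the most peaks, stood apart at 17.4%, and the other 11 lay between 21.1% and 23.2%. The difference of -0.903 percentage points between the groups became -0.101 without it. Of all tags kept after the authors' filtering, the domain peaks held 4.27 ± 0.516% in d22 (3.81 to 5.13%) and 5.10 ± 0.399% in pbs (4.56 to 5.62%), a difference larger than either SD, with overlapping ranges and no test run. The authors' fold enrichment, a peak's own ratio over its local background, had a median per library of 42.9 ± 5.46 in d22 domains and 52.6 ± 6.35 in pbs domains, against 27.0 ± 3.22 and 33.4 ± 4.66 in the other shared regions. The gap between the groups exceeded either SD here too. Since d22 and pbs peaks were called against different pooled inputs, an effect of input on these ratios cannot be told apart from one of group.

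Most domains lay over the start of a protein-coding gene. Start sites on chromosome 18 were not used here, and of the 1017 domains elsewhere 656 (64.5%) held a start site from the RefSeq table, against 63.8% of the other shared regions. Of all 1042 domains, 191 (18.3%) held no listed start but touched a gene that has none in that table, against 16.7% of the other shared regions. A start inside these could not be seen, so the shares with a start site may be too low. Another 113 domains touched a gene whose listed start lay outside them. Between genes, with no coding gene within 1 kb, lay 79 domains. Of these 79, 42 held a long noncoding RNA gene, and the median distance to the nearest coding gene was 20494 bp. Domains reached more than 1 coding gene in 234 cases (22.5%), against 17.04% of the other shared regions. The wider a region is, the more genes it can touch, and this share was not adjusted for width.

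The domains extended into the gene. In the 449 domains with a single start site, the merged region reached a median of 5739 bp downstream of the start and 1808 bp upstream, and 395 of them (88.0%) reached farther downstream. In the 5476 other shared regions with a single start site the medians were 1632 and 857 bp, and the share that reached farther downstream was 88.6%. The summit of the strongest peak lay a median of 430.5 bp downstream of the start (quartiles 235 and 676.5 bp). At 100 bp downstream of the start, 96.4 ± 1.93% of these domains were called in d22 libraries and 97.1 ± 2.35% in pbs libraries. At 4100 bp downstream the values were 50.04 ± 7.95% and 58.4 ± 9.21%, and at 6100 bp 20.2 ± 3.39% and 26.1 ± 4.98%. At 1900 bp upstream they were 28.8 ± 4.28% and 31.3 ± 3.74%. The lower mean of d22 went with its smaller called length at all domains, given above.

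The widest domain covered the Apoe gene cluster. It ran over 36767 bp (chr7:19667908-19704674) and touched 6 coding genes, among them Apoe, Apoc1, Apoc2 and Apoc4, which encode apolipoproteins of the plasma lipoproteins, and Tomm40, a channel of the mitochondrial outer membrane. Its tags, in CPM (scaled by edgeR to each library's tags in shared regions), were 1061 to 1677 with a median of 1216 in d22 libraries, and 1191 to 1388 with a median of 1309 in pbs libraries. The groups overlapped, and the log2 difference was -0.03 ± 0.09 (SE; edgeR adjusted p = 0.939). It was called as 12.2 peaks per d22 library and 10.0 per pbs library, over a mean of 28972 and 31394 bp.

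Rxra held 3 domains that together spanned nearly the whole gene. Rxra encodes the retinoid X receptor alpha, the partner with which many hepatic nuclear receptors bind DNA. The domains were 35235 bp (chr2:27670841-27706075), 22921 bp (chr2:27707457-27730377) and 35228 bp (chr2:27731233-27766460), summing to 93384 bp of a 95620 bp stretch. The CpG-dense promoter shown above lies in the first of them, which held 39.0 CPM per kb of called peak in d22 and 37.3 in pbs. The domain farthest downstream held 18.5 and 17.01 CPM per kb. It was also the most fragmented domain, with 17.3 peaks per library. Its tags ran from 186 to 418 CPM in d22 and from 172 to 549 CPM in pbs, with medians of 318 and 325, so the groups overlapped widely. The libraries that covered most of the domain width in general, pbs 1, pbs 6 and d22 1, also had the most tags there, and the part of coverage in this value was not tested.

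The other domains among the 10 widest lay at Ell, Shb, Slc39a14, Dgat2, Sdc4 and Mtss1. Ell (31477 bp) encodes an RNA polymerase elongation factor, Shb (30332 bp) a signalling adaptor, and Slc39a14 (29339 bp) a zinc and iron importer. Dgat2 (28683 bp) encodes the enzyme of the last step of triglyceride synthesis and Sdc4 (27853 bp) a cell-surface proteoglycan. Mtss1, an actin and membrane binding protein, had 2 of the 10 (27363 and 23642 bp). None of these 10 domains passed the tag test, and their log2 differences ran from -0.17 to 0.25. By summed tags the leading 5 domains were at the Apoe cluster, Rxra, Slc39a14, Bcl6 and Stard10, and Bcl6 (a transcriptional repressor) had the highest density of these, 59.8 CPM per kb in d22 and 53.1 in pbs.

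Several genes carried chains of domains. There were 1129 coding genes at a domain, 10.4% of the 10900 at any shared region, and 83 genes had at least 2 domains and 17 at least 3. Shb, Zbtb16 and Adk had 5 each, and Mtss1, Septin9, Klf13, Tns1 and Scp2 had 4 each. Of the 1022 gaps between neighbouring domains, 113 were within 10 kb and 47 within 2 kb. The 5 domains of Zbtb16, which encodes a zinc finger transcriptional repressor, all had positive log2 differences (0.21 to 0.96), and none passed the tag test (lowest edgeR adjusted p = 0.0714). In the widest of them (15697 bp) the d22 libraries held 349 to 470 CPM with a median of 427 and the pbs libraries 228 to 383 CPM with a median of 296. The ranges overlapped, and the log2 difference was 0.48 ± 0.12 (SE).

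Large shares of the genes that define hepatocytes lay at a domain. Of the 22 hepatocyte transcription factors at shared regions, 16 were at a domain (72.7%, against 10.4% of all coding genes at shared regions), among them Hnf4a, Foxa1, Foxa2, Foxa3, Cebpa, Cebpb, Prox1 and Onecut1. Of the 32 genes of secreted hepatocyte proteins 22 were at a domain (68.8%), of 14 apolipoproteins 10 (71.4%), of 20 acute phase proteins 13 (65.0%) and of 26 urea cycle and amino acid enzymes 15 (57.7%). Corepressors and related regulators had 14 of 22 (63.6%), and nuclear receptors 12 of 26 (46.2%). Under the 10.4% of all coding genes were cell cycle entry and p53 targets with 2 of 24 (8.33%), Ccnd1 and Gadd45g, and replication-dependent histones with 0 of 9. Cholesterol synthesis with 4 of 22 (18.2%) and fatty acid oxidation with 6 of 22 (27.3%) were low among the lists but above that share. Of 27 immediate early genes 11 were at a domain (40.7%), among them Egr1, Junb, Ier2 and Socs3.

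Few markers of other liver cells lay at a shared region, and only endothelial ones lay at a domain. Of 8 hepatocyte markers at shared regions, 6 were at a domain (Alb, Apoa1, Apoa2, Hnf4a, Serpina1a and Tat). Of the markers at shared regions, 0 of 2 macrophage, 0 of 1 cholangiocyte and 0 of 1 lymphocyte genes were at a domain, and stellate and neutrophil markers had no shared region. Of 5 endothelial markers 2 were at a domain, Eng, a receptor of the TGF-beta family, and Ets1. In the Eng domain the d22 libraries held 130 to 222 CPM with a median of 136 and the pbs libraries 88.7 to 166 CPM with a median of 141, and the groups overlapped. In bulk tissue, fewer cells of a type and less of the mark per cell cannot be told apart.

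Hnf4a, the nuclear receptor at the centre of the hepatocyte factor network, had 2 domains of 17696 and 10946 bp. The wider one, which holds the promoter shown above, had 522 to 634 CPM with a median of 581 in d22 libraries and 517 to 629 CPM with a median of 603 in pbs libraries. The groups overlapped, and the log2 difference was -0.03 ± 0.07 (SE; edgeR adjusted p = 0.923). The Cebpa domain (8580 bp) had 318 to 396 CPM with a median of 368 in d22 and 348 to 399 CPM with a median of 369 in pbs, also overlapping. Of the 18 domains at hepatocyte transcription factors 0 passed the tag test, and their median log2 difference was -0.04. At Alb, which encodes serum albumin, the domain (6430 bp) had 42.7 to 92.4 CPM and a median of 66.6 in d22 and 71.2 to 148 CPM and a median of 95.7 in pbs. Those ranges overlapped too (log2 difference -0.56 ± 0.18, edgeR adjusted p = 0.177).

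Among the other lists of hepatocyte regulation and metabolism, domains were split between signs to different degrees, and no direction of a list was tested. Nuclear receptors had 19 domains at 12 genes, 17 with a negative log2 difference (median -0.18) and 0 passing. Nr1d1, the clock repressor REV-ERB alpha, came nearest, with 67.4 to 132 CPM and a median of 110 in d22 libraries and 133 to 182 CPM and a median of 150 in pbs libraries. Its groups did not overlap, and the log2 difference of -0.51 ± 0.13 did not pass (edgeR adjusted p = 0.0708). Ppara, the receptor that drives fatty acid oxidation, had an 18750 bp domain with 318 to 558 CPM and a median of 421 in d22 and 499 to 627 CPM and a median of 538 in pbs, overlapping (-0.32 ± 0.11, edgeR adjusted p = 0.274). Urea cycle and amino acid enzymes had 16 domains, 13 of them negative, with Slc25a13 the single one that passed (median -0.16). Corepressors and related regulators had 21 domains, 14 of them positive (median 0.10), with 0 passing. Cholesterol synthesis genes had 4 domains, all negative (median -0.10), with 0 passing. Insulin, IGF and nutrient signalling genes had 4 positive and 5 negative domains, hepatocyte transcription factors 6 and 12, and drug metabolism genes 6 and 3, the last with Gstt2 passing as lower. Over all domains 439 differences were positive and 603 negative.

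Tags in peaks differed between d22 and pbs at 35 domains. Counts were summed over each library's peaks in a region and tested over all 12375 shared regions with edgeR's quasi-likelihood test at a Benjamini-Hochberg adjusted p under 0.05. Of 1042 domains, 17 were higher and 18 lower in d22, or 3.36%, where 1.01% of all shared regions were called (0.453% higher and 0.558% lower). The share called rose with width among narrower regions, from 0.103% at 1 to 2 kb to 2.59% at 5 to 6 kb. It was 4.20% at 6 to 8 kb, 2.51% at 8 to 10 kb, 2.44% at 10 to 15 kb and 1.49% at 15 kb and over. The merged width is taken over both groups, so the width rule can favour regions that were called wider in either group. Its part in the shares given here was not tested. Over the bins from 1 to 2 kb up to 15 kb and over, the median standard error fell from 0.194 to 0.0921 as tags per region grew, and the part of precision in the share called was not tested. The median log2 difference was -0.03 in domains and 0.00 in all shared regions, and a difference of more than 1 in size was found in 3 domains. Without pbs 3, 20 domains passed, 10 in each direction. With library totals as the only scaling 5 domains were higher and 149 lower, and with the authors' fold enrichment 14 higher and 206 lower, as these scalings move the median of all shared regions by -0.22 and -0.30. Of the 35 domains, library totals kept 5 higher and 18 lower and lost 12. Fold enrichment kept 2 higher and 6 lower, lost 24 and called 3 in the other direction, and relative to its median shift the sign turned in 12. All d22 libraries lay above all pbs libraries in 16 domains (1.54%) and below them in 22 (2.11%), against 0.59% and 0.743% of all shared regions, and 28 of these 38 domains were among the 35 called.

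The largest increase lay between genes, 22230 bp from Ppp1r3b, which encodes the liver subunit that targets protein phosphatase 1 to glycogen. The domain (chr8:35410369-35419452, 9084 bp) held 161 to 277 CPM with a median of 243 in d22 libraries and 28.1 to 110 CPM with a median of 82.6 in pbs libraries. All d22 libraries were above all pbs libraries. The log2 difference was 1.56 ± 0.23 (SE), or 2.95-fold, with an edgeR adjusted p of 0.00336. Its called length averaged 7132 bp in d22 and 4192 bp in pbs, and its density 33.3 and 18.7 CPM per kb.

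Thrsp, a nuclear protein of lipogenic liver that responds to thyroid hormone and carbohydrate, had the next largest increase. Its domain (chr7:97414066-97421845, 7780 bp) held 167 to 271 CPM with a median of 193 in d22 libraries and 53.7 to 111 CPM with a median of 80.4 in pbs libraries, without overlap. The log2 difference was 1.30 ± 0.16 (SE; edgeR adjusted p = 0.000443). Peaks covered 6333 bp in d22 and 4083 bp in pbs on average, at 32.6 and 20.6 CPM per kb. The called part reached 4000 bp upstream of the start in d22 and 2910 bp in pbs, beyond the CpG-poor promoter shown above.

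More tags in d22 were also found at Gpi1 and at the domain of Khk and Emilin1. Gpi1, glucose-6-phosphate isomerase of glycolysis, had a domain of 6469 bp (chr7:34224597-34231065) with 167 to 241 CPM and a median of 183 in d22 and 87.9 to 148 CPM and a median of 100.01 in pbs. The groups did not overlap, and the log2 difference was 0.81 ± 0.13 (edgeR adjusted p = 0.00626). Its called part reached 5328 bp into the gene in d22 and 3878 bp in pbs. The domain shared by Khk and Emilin1, an extracellular matrix protein, held 239 to 298 CPM with a median of 279 in d22 libraries. In pbs it held 181 to 213 CPM with a median of 188, again without overlap (0.50 ± 0.08, edgeR adjusted p = 0.00553). Its edgeR adjusted p was 0.181 with library totals and 0.118 among libraries with 49 bp tags, and its limma adjusted p by fold enrichment was 0.510. Khk and Gpi1 are the 2 domains that passed among the 9 at glycolysis, fructose entry and ChREBP target genes, a list with 4 positive and 5 negative domains and a median log2 difference of -0.04. A domain 13724 bp from Eno1, another glycolytic enzyme, was higher in this test (0.47, edgeR adjusted p = 0.00982), while Eno1's own domain did not pass. By the authors' fold enrichment the domain near Eno1 was lower in d22, by -0.28 relative to the median of all regions (limma adjusted p = 0.0150 for the difference before that shift is taken off), and its adjusted p was 0.244 with library totals and 0.145 among libraries with 49 bp tags. At Gpi1 the value by fold enrichment was -0.0114 relative to that median (adjusted p = 0.188).

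Fatty acid synthesis genes had domains that passed in both directions. Of 11 domains at 9 of the 17 genes of this list at shared regions, 2 were higher (Thrsp and Lpin1) and 2 lower (Gpam and Fads2), and the median log2 difference was 0.15. Lpin1 encodes a phosphatidate phosphatase of glycerolipid synthesis. Its wider domain (chr12:16582149-16592480, 10332 bp) held 407 to 501 CPM with a median of 432 in d22 and 239 to 341 CPM with a median of 277 in pbs. The groups did not overlap, and the log2 difference was 0.64 ± 0.10 (edgeR adjusted p = 0.00477). The density was 53.04 CPM per kb in d22 and 36.7 in pbs, while the mean called length was 8609 and 7847 bp. The other Lpin1 domain (6205 bp) had a log2 difference of 1.05 that did not pass (edgeR adjusted p = 0.145).

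Gpam, which encodes a mitochondrial enzyme of the first step of glycerolipid synthesis, had fewer tags in d22. Its domain (chr19:55097300-55107635, 10336 bp) held 62.1 to 94.0 CPM with a median of 79.3 in d22 and 105 to 170 CPM with a median of 142 in pbs. The groups did not overlap, and the log2 difference was -0.84 ± 0.12 (edgeR adjusted p = 0.00167). Peaks covered 3276 bp of it on average in d22 against 6672 bp in pbs, while its density was 25.4 and 21.3 CPM per kb. By fold enrichment the value at Gpam was -0.049 relative to the median of all regions (limma adjusted p = 0.186 before that shift is taken off).

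Fads2, the delta-6 fatty acid desaturase, also fell. Its domain (chr19:10096549-10102986, 6438 bp) held 92.8 to 124 CPM with a median of 103 in d22 and 161 to 213 CPM with a median of 177 in pbs, without overlap. The log2 difference was -0.80 ± 0.09 (edgeR adjusted p = 0.000443). The called part reached 2801 bp into the gene in d22 and 4493 bp in pbs, from the start in the promoter shown above. The density was 33.9 and 33.0 CPM per kb. By fold enrichment the value at Fads2 was -0.029 relative to the median of all regions (limma adjusted p = 0.180 before that shift is taken off).

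**Figure D2:**
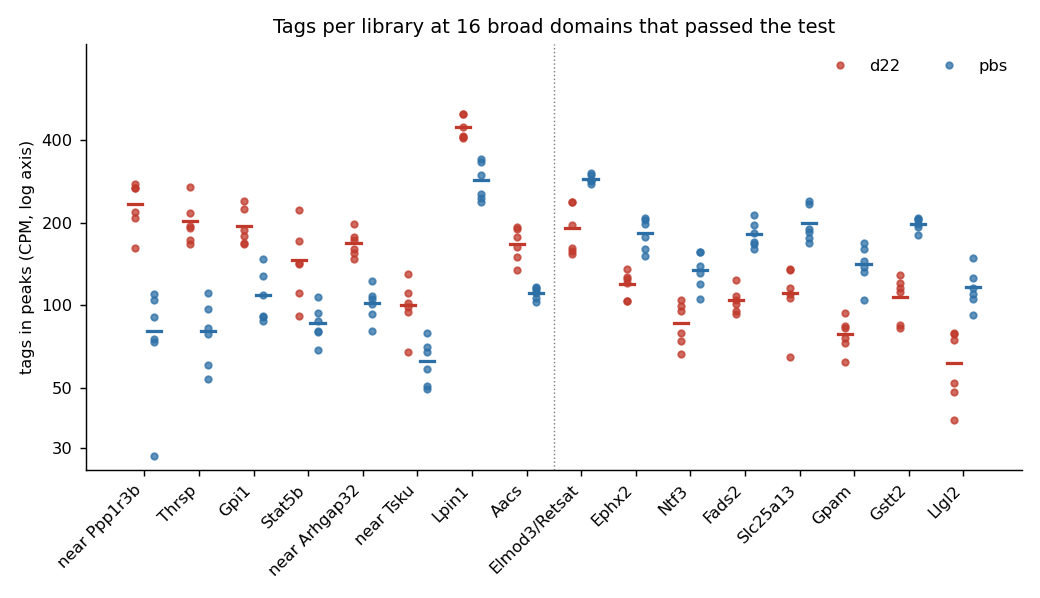
Tags in peaks per library (CPM, log axis) at the 8 domains with the largest higher and the 8 with the largest lower log2 differences among those that passed the tag test; points are libraries, bars the means of d22 and pbs (n = 6 each). At Thrsp the d22 libraries lie between 167 and 271 CPM and the pbs libraries between 53.7 and 111, and at Stat5b the groups overlap.

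The largest decreases outside that list were at Llgl2, Gstt2 and Slc25a13. Llgl2 encodes a protein of epithelial cell polarity, and its domain (chr11:115828875-115835112, 6238 bp) held 38.0 to 78.9 CPM with a median of 63.4 in d22 and 92.3 to 148 CPM with a median of 113 in pbs (-0.93 ± 0.17, edgeR adjusted p = 0.00982). Gstt2, a glutathione transferase, held 82.5 to 129 CPM with a median of 114 in d22 and 180 to 208 CPM with a median of 201 in pbs (-0.87 ± 0.10, edgeR adjusted p = 0.000443). The groups did not overlap at either. At these 2 domains density fell as well as length, from 27.2 to 20.9 CPM per kb at Llgl2 and from 36.3 to 27.0 at Gstt2, pbs against d22, though neither change in density passed its own test. Slc25a13, the mitochondrial aspartate-glutamate carrier that serves the urea cycle, held 64.5 to 136 CPM with a median of 112 in d22 and 169 to 240 CPM with a median of 187 in pbs, without overlap (-0.82 ± 0.14, edgeR adjusted p = 0.00733). Its called part reached 3958 bp into the gene in d22 and 6233 bp in pbs. By fold enrichment its direction turned, to 0.47 relative to the median of all regions (limma adjusted p = 0.527).

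Lower domains also lay at Acsl1, Ephx2, Abcd3 and Crot. Acsl1, the long-chain acyl-CoA synthetase, had the widest lower domain (14271 bp), with 171 to 231 CPM and a median of 202 in d22 and 253 to 331 CPM and a median of 290 in pbs. The groups did not overlap (-0.54 ± 0.10, edgeR adjusted p = 0.00861). Ephx2, the soluble epoxide hydrolase, held 104 to 136 CPM with a median of 123 in d22 and 151 to 208 CPM with a median of 187 in pbs, without overlap (-0.62 ± 0.10, edgeR adjusted p = 0.00553). Abcd3, a transporter of the peroxisomal membrane, held 113 to 166 CPM in d22 and 165 to 287 in pbs (-0.57 ± 0.12, edgeR adjusted p = 0.0274), and Crot, a peroxisomal carnitine acyltransferase, 152 to 203 and 207 to 323 (-0.47 ± 0.11, edgeR adjusted p = 0.0447). Crot did not overlap and Abcd3 overlapped at its limit. By fold enrichment the direction turned at Acsl1 (0.21 relative to the median of all regions, limma adjusted p = 0.704) and Ephx2 (0.11, adjusted p = 0.483). On leaving out single libraries, Abcd3 was lost in 6 of 12 refits and Crot in 11 (highest adjusted p 0.0747 and 0.117). None of these 4 genes is on the list of fatty acid oxidation and PPAR-alpha targets, whose 7 domains all had negative log2 differences (median -0.30) with 0 passing.

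Pck1, which encodes the phosphoenolpyruvate carboxykinase of gluconeogenesis, had fewer tags in d22 over a 13176 bp domain (chr2:173150625-173163800). It held 286 to 377 CPM with a median of 327 in d22 and 399 to 479 CPM with a median of 441 in pbs, without overlap (-0.43 ± 0.08, edgeR adjusted p = 0.0100). By fold enrichment the direction turned, to 0.0859 relative to the median of all regions (limma adjusted p = 0.4075). It was the only one of 13 domains at gluconeogenic genes that passed, in this test, and the 13 were 6 positive and 7 negative. At Pcx, pyruvate carboxylase, the d22 libraries held 154 to 316 CPM with a median of 171 and the pbs libraries 85.7 to 172 with a median of 126, and the log2 difference of 0.61 ± 0.17 did not pass (edgeR adjusted p = 0.138). The highest value there was d22 4.

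Lcn2, an acute phase protein that binds bacterial siderophores, was the single domain of 14 at acute phase genes that passed. It held 170 to 226 CPM with a median of 201 in d22 and 125 to 167 CPM with a median of 149 in pbs, without overlap (0.47 ± 0.09, edgeR adjusted p = 0.0164). The edgeR adjusted p at Lcn2 was 0.2465 with library totals and 0.0846 among libraries with 49 bp tags, and the limma adjusted p by fold enrichment was 0.845. Aacs, a cytosolic synthetase that returns acetoacetate to lipid synthesis, held 134 to 193 CPM with a median of 170 in d22 and 103 to 117 CPM with a median of 112 in pbs, also without overlap (0.59 ± 0.09, edgeR adjusted p = 0.00477). By fold enrichment Aacs was lower in d22, by -0.32 relative to the median of all regions (limma adjusted p = 0.0221 before that shift is taken off), and its adjusted p was 0.141 with library totals and 0.0721 among libraries with 49 bp tags. Ube2g2, a ubiquitin-conjugating enzyme of protein degradation at the endoplasmic reticulum, held 192 to 243 CPM in d22 and 119 to 159 in pbs (0.53 ± 0.09, edgeR adjusted p = 0.00626). Its groups did not overlap, and peaks covered a mean of 6328 bp of it in d22 against 4306 bp in pbs. The edgeR adjusted p at Ube2g2 was 0.183 with library totals and 0.1165 among libraries with 49 bp tags, and the limma adjusted p by fold enrichment was 0.278.

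Of the 17 higher domains 6 lay between genes, while 0 of the 18 lower domains did, a contrast that was not tested. Of all domains 79 (7.58%) lay between genes, and of all shared regions 10.7%. Beside those near Ppp1r3b and Eno1 they lay 15407 bp from Arhgap32 (0.72 ± 0.10, edgeR adjusted p = 0.00203), 20494 bp from Tsku (0.70 ± 0.14, adjusted p = 0.0234), 5742 bp from Tob2 (0.47 ± 0.10, adjusted p = 0.0280) and 5266 bp from Armc12 (0.58 ± 0.12, adjusted p = 0.0212). The domain near Armc12 covers the long noncoding RNA gene E230001N04Rik over 16843 bp and held 349 to 528 CPM in d22 and 256 to 408 in pbs. Its groups overlapped because pbs 1, at 408 CPM, stood above the other pbs libraries, which ended at 299 CPM. The domain near Arhgap32 held 147 to 198 CPM in d22 and 80.6 to 123 in pbs, without overlap. The nearest gene only names these domains, and no link to it was measured. Of the 6 genes, 4 also give their name to a domain over the gene itself; these were picked for mention after their values were seen, and 0 of the 4 passed. The log2 differences there were 0.29 ± 0.11 at Ppp1r3b (8718 bp, edgeR adjusted p = 0.347), -0.06 ± 0.10 at Eno1 (8137 bp, adjusted p = 0.892), 0.14 ± 0.12 at Tsku (15020 bp, adjusted p = 0.736) and 0.23 ± 0.08 at Tob2 (12990 bp, adjusted p = 0.240). Whether a gene's own domain differed from the one nearby in its change was not tested.

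The remaining called domains were as follows. Higher were Stat5b, a transducer of growth hormone signals (0.73 ± 0.17, edgeR adjusted p = 0.0498), Usp10, Dpp9 and the domain shared by Derl2 and Mis12. By fold enrichment Usp10 was lower (-0.48 relative to the median of all regions, limma adjusted p = 0.00434 before that shift is taken off), and the direction also turned near Armc12 (-0.15) and at Mcrip2 (0.34), Ctdsp1 (0.41) and Mafk (0.32). Lower were Ntf3, a neurotrophin (-0.66 ± 0.12, edgeR adjusted p = 0.0129), the domain of Retsat and Elmod3 (-0.60 ± 0.11, adjusted p = 0.0114), Gdf15, a stress-induced cytokine (-0.53 ± 0.10, adjusted p = 0.0202), Rusc2, Cluh, Mcrip2, Ctdsp1 and Mafk. On leaving out each library in turn all 35 domains kept their sign, and 20 passed in all 12 refits. The 15 that did not were Abcd3, Gdf15, Rusc2, Crot, Cluh, Mcrip2, Ctdsp1, Mafk, Dpp9, Stat5b, Usp10, Derl2/Mis12 and the domains near Tob2, Tsku and Armc12. Gdf15 was lost without pbs 3 only (adjusted p 0.0511), Usp10 without pbs 3 or pbs 4 (highest 0.0521), and Mafk without any 1 library (highest 0.124).

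Tags were 48 bp long in 3 pbs libraries (1, 4 and 6) by the file headers, and 49 bp long elsewhere. Among the 9 libraries with 49 bp tags, an alternative chosen after seeing the data, 15 domains passed edgeR's test, 9 higher and 6 lower, and 11 of them were among the 35. In that fit the adjusted p was 0.0114 near Ppp1r3b, 0.0151 at Thrsp, 0.0114 at Gstt2, 0.0160 at Fads2, 0.0417 at Gpam and 0.0249 at Gpi1. It was 0.140 at Llgl2, 0.0944 at Slc25a13, 0.0527 at Acsl1 and 0.128 at Pck1. That fit has 3 pbs libraries in place of 6.

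By their medians, the lower domains had a smaller called length in d22 at a similar density, and the higher domains a larger called length and a higher density. Called length was tested with limma over the same 12375 regions, where 0% were called, and 0 of the 1042 domains passed, with 148 at an unadjusted p under 0.05. Without d22 1, 11 domains passed, all of them shorter in d22, and without pbs 3, 1 passed, also shorter. The sign of the change in length matched that of tags in all 35 called domains. Its median on the log2 scale was 0.32 in the 17 higher and -0.57 in the 18 lower domains, against -0.11 in all domains and -0.08 in all shared regions. Density, as CPM per kb of called peak, was called with limma in 0.0404% of shared regions (0.0323% higher, 0.00808% lower) and in 1 domain, higher in d22, that near Ppp1r3b (0.83, adjusted p = 0.037), with 49 domains at an unadjusted p under 0.05. In density 0 domains passed without d22 1, 2, 5 or 6 and without pbs 1, 4, 5 or 6. The median change in density was 0.28 in the higher and 0.02 in the lower domains, against 0.08 in all shared regions. Density changes lay above that median in 14 of the 17 higher and under it in 15 of the 18 lower domains. Tags are the sum that chose the 35 domains and contain both length and density, so these medians are a description.

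**Figure D3:**
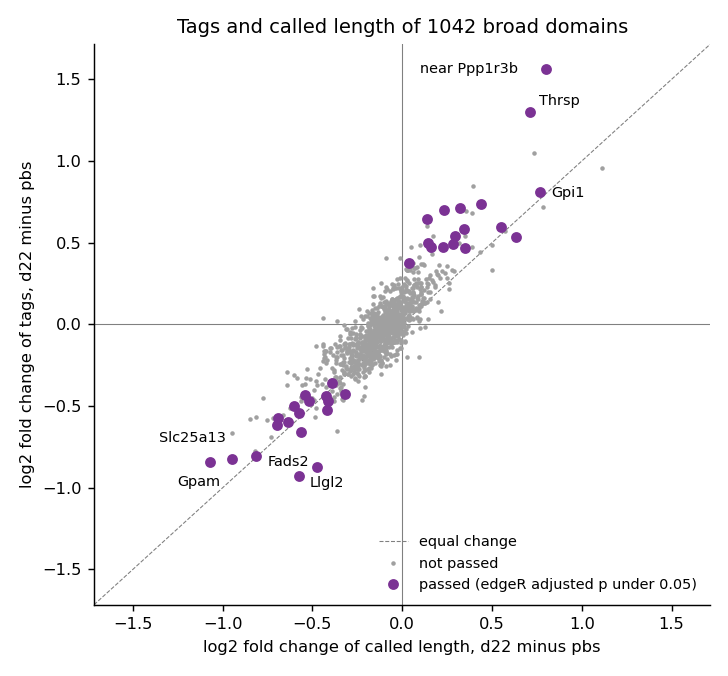
Log2 change of tags in peaks against log2 change of called length, d22 minus pbs, for 1042 domains; purple points passed the tag test and the dashed line marks equal change. All 35 purple points lie in the quadrants of equal sign, Gpam and Fads2 near the line and the domain near Ppp1r3b and Thrsp above it.

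**Figure D4:**
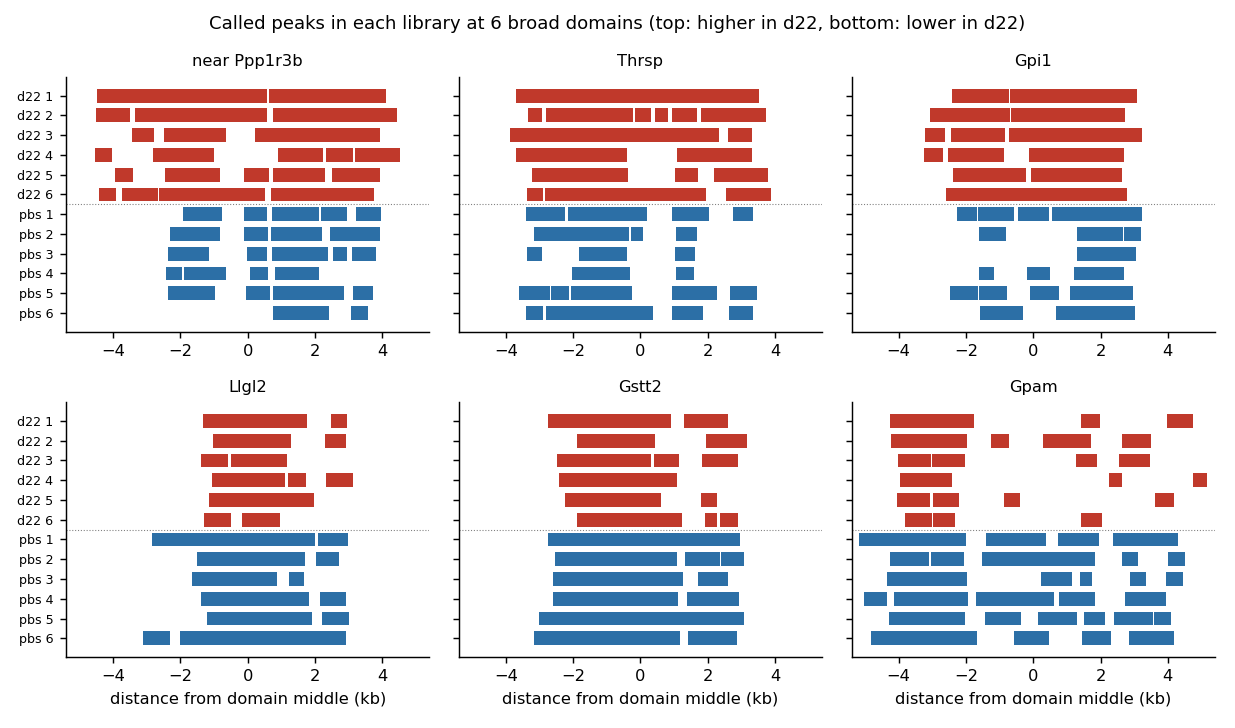
Called peaks of each library as bars, against distance from the middle of the domain in kb, at 3 higher domains (near Ppp1r3b, Thrsp, Gpi1) and 3 lower domains (Llgl2, Gstt2, Gpam). Mean called length is 7132 bp in d22 and 4192 bp in pbs near Ppp1r3b, and 3276 and 6672 bp at Gpam.

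Some domains lay over microRNA genes and long noncoding RNAs. MicroRNAs are short RNAs that pair through their seed, bases 2 to 8, with messenger RNAs and repress them. The domains held 33 of 1005 hairpins in the RefSeq table, in 29 domains, or 3.55 hairpins per Mb of domain against 2.75 per Mb of the other shared regions. The mature sequences shown are those of microRNAs known from liver or from its vessels, with the seed in capitals.
mmu-miR-26b-5p: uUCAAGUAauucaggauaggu
mmu-miR-21a-5p: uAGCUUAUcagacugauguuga
mmu-miR-22-3p: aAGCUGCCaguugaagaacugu
mmu-miR-192-5p: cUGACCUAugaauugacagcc
mmu-miR-194-5p: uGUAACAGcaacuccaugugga
mmu-let-7b-5p: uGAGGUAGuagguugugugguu
mmu-let-7c-5p: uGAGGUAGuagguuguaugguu
mmu-miR-126a-3p: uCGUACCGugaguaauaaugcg
The let-7b and let-7c sequences share the seed GAGGUAG and a domain 26410 bp from Ppara, which also holds Lncppara (log2 difference -0.40 ± 0.23, edgeR adjusted p = 0.569). Mir26b lies in the Ctdsp1 domain (8736 bp), the single one of the 29 domains with a hairpin that passed. It held 138 to 151 CPM with a median of 145 in d22 and 153 to 233 CPM with a median of 203 in pbs, without overlap (-0.43 ± 0.10, edgeR adjusted p = 0.0452), and it was lost in 10 of 12 refits that left out a library.

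The other microRNA domains shown did not pass. Mir21a lies in a 13573 bp domain inside Vmp1, with 467 to 579 CPM and a median of 527 in d22 and 466 to 634 CPM and a median of 526 in pbs, overlapping throughout (-0.01 ± 0.08). The domain of Mir22 and its host Mir22hg, near Tlcd2, had a log2 difference of -0.18 ± 0.10, that of Mir192 and Mir194-2 beside Atg2a -0.13 ± 0.07, and that of Mir126a in Egfl7 and Agpat2 0.16 ± 0.11. Among long noncoding RNAs, Malat1 lay in a domain of 12379 bp, which held 411 to 491 CPM with a median of 446 in d22 and 426 to 610 CPM with a median of 523 in pbs (-0.18 ± 0.09). Neat1 lay in 2 neighbouring domains, of 23166 bp (also touching Frmd8) and 6637 bp, the wider with 655 to 802 CPM and a median of 759 in d22 and 777 to 836 CPM and a median of 812 in pbs (-0.12 ± 0.07). The groups overlapped at both.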

How the data were processed

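Each of the 12 libraries had a deposited list of peaks, and the inputs had none here. The submitters' processing notes name CASAVA 1.8, Novoalign, MACS 1.4.2 and the build mm10. Per the file headers, MACS ran with a p-value cutoff of 1e-05, a band width of 300 bp and at most 1 tag per position, each library alone against 1 pooled input, of 12526421 tags for d22 libraries and 10409931 for pbs libraries. Tags kept per library ran from 6343891 (d22 4) to 13259411 (pbs 1), and the columns used as deposited, per the file headers, are the count of tags in a peak (unscaled), the peak's length in bp, a score derived from the log10 of the p-value, the fold enrichment ratio, and the percent false discovery rate, each the authors' own value for that peak.

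Peaks that overlapped were merged, and a region took the names of coding genes it touched within 1 kb, from RefSeq tables of GRCm38.p6 that are not complete. The members and gene lists were chosen with earlier results of these data known. Tags were summed per library and region and tested with edgeR 4.0.16 (R 4.3.3; robust quasi-likelihood test, TMM scaling) over 12375 regions. Called length and CPM per kb were tested on the log2 scale with limma 3.58.1, on values computed from the deposited tables. Adjustment was by Benjamini-Hochberg at 0.05. A standard error is the size of the log2 fold change over the root of the F statistic. The alternatives were other scalings, DESeq2 1.42.0, stricter peaks, other region filters, a replicate term and each library left out. Named were up to 12 called domains per direction by size, the 10 widest, the 5 with the most tags and with the most genes, up to 2 of smallest p per gene list, and 3 at each other extreme; the other called domains, the remaining Zbtb16, Mtss1 and Lpin1 domains, and those of microRNAs, long noncoding RNAs, Hnf4a, Cebpa, Alb and Eng were chosen after their values were seen. The tests were tried on simulated data. The libraries differed by more than sampling noise in all 66 pairs (chi-square per degree of freedom 2.41 to 10.3).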

Additional observations from a re-analysis of the deposited data

Results flagged for a closer look

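In 18 of 176 groups of 6 libraries the highest or lowest value stood apart from the rest by more than Dixon's 95% limit, which chance alone passes in about 1 group of 20. The library d22 4 accounted for 10 of the 18, and pbs 1 and d22 1 for 2 each. It had the lowest share of its peak tags in domains, 17.4% against 21.5% to 23.2% in the other d22 libraries. In CPM it was highest at Usp10 (286, others 185 to 218), Bcl6 (1091, others 777 to 890), Apc2/Pcsk4/Reep6 (277, others 144 to 175), Slc10a1 (397, others 262 to 298), Tef (196, others 62.1 to 98.4) and Pcx (316, others 154 to 177). It was lowest at Shb (307, others 516 to 588), Apob (186, others 236 to 265) and Igfbp1 (94.9, others 187 to 222). Usp10 is the one of these domains that passed the tag test, and it kept its call without d22 4.

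The other values that stood apart came from 6 libraries. At the called domains these were d22 2 at Ube2g2 (243 CPM, others 192 to 206), d22 1 at Rusc2 (114, others 69.3 to 81.6) and pbs 1 near Armc12 (408, others 256 to 299). At domains that did not pass they were d22 3 at Slc39a14 (1047, others 850 to 922), d22 5 at Stard10 (870, others 725 to 762), d22 1 at Btg1 (141, others 117 to 122), pbs 1 at Shb (636, others 503 to 546) and pbs 6 at Gadd45g (301, others 335 to 355).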

How the results depend on the processing

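The number of domains depends on how peaks are joined: 1737 with peaks within 500 bp joined, 224 where only bases called in at least 6 libraries count, 716 for at least 2 libraries, and 947 to 1039 without 1 library. The 35 domains that passed the tag test became 70 with DESeq2, 220 (14 higher, 206 lower) with the authors' fold enrichment, 154 (5 higher, 149 lower) with library totals as the only scaling, 20 (10 higher, 10 lower) with peaks of a score of at least 100, 15 in the libraries with 49 bp tags, and 20 (without pbs 3) to 38 (without d22 4) without 1 library. Fold enrichment and library totals shifted the median of all shared regions by -0.30 and -0.22. Their tests were of the differences before that shift is taken off, so their lower calls include it. The 35 domains that passed without a replicate term also numbered 35 with the title number as a replicate block, 29 of them shared. The correlations of same-numbered libraries were -0.00673 to 0.157, and 3 of 12 libraries were closest to their own number. These values show little pairing by number and cannot tell whether same-numbered libraries were handled together. In called length 0 domains passed, 5 after centring each library on the median of all regions, and 0 to 11 without 1 library (11 without d22 1). In CPM per kb 1 passed, 2 after centring, 2 with the replicate block, and 0 to 1 without 1 library. The difference in peaks per domain was 0.141 (0.00221 without pbs 6 to 0.318 without d22 1), and that in the share of peak tags -0.903 percentage points (-1.26 to -0.101, the latter without d22 4).

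Of 1719 recomputed values of 86 named domains, 1442 counted as unchanged, 197 lost the call, 53 gained it and 27 counted as reversed. A value counted as reversed where its sign changed and either fit called it or it moved by more than the main standard error. Any other change of sign, smaller and without a call, was counted among the 1442. In the libraries with 49 bp tags the sign was reversed in this sense at the Rxra domain starting at 27731233 (0.19). With fold enrichment, the highest of the region, it changed near Armc12 (-0.15), at Aacs (-0.32), Usp10 (-0.48), Gpi1 (-0.0114), near Eno1 (-0.28), Ell (-0.27), Gadd45g (-0.57), Fosl2 (-0.00394), Igfbp1 (-0.11) and Dap (-0.25). It also changed at Ephx2 (0.11), Acsl1 (0.21), Slc25a13 (0.47), Pck1 (0.0859), Ctdsp1 (0.41), Mcrip2 (0.34), Mafk (0.32), the Rxra domain starting at 27670841 (0.0915), Apc2/Pcsk4/Reep6 (0.34), C2/Cfb/Nelfe/Skiv2l (0.0422), Apob (0.0653), Abcb4 (0.0647), Hsp90b1/Ttc41 (0.000428), Xbp1 (0.0300), Foxa1/Ttc6 (0.0576) and Btg1 (0.21), given relative to the median of all regions. The cause was not tested. The log2 difference of a domain's tags had a median standard error of 0.10, and the part of depth in it was not tested.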

Other observations

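The domains that touched the most coding genes are given here by content. Beside the Apoe cluster, the domain of Jmjd8, Rhbdl1, Rhot2, Stub1 and Wdr24 (12709 bp) touched 5 coding genes, and those of Eno3, Pfn1, Rnf167 and Slc25a11 (12373 bp) and of C2, Cfb, Nelfe and Skiv2l (15647 bp) touched 4. C2 and Cfb encode complement proteins made by the liver. Their log2 differences of tags, d22 minus pbs, were -0.14 ± 0.09, -0.03 ± 0.07 and -0.12 ± 0.09 (SE), none of which passed edgeR's test.

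Some domains were called as nearly unbroken blocks. At Mbl1 (6059 bp), which encodes a mannose-binding lectin, a library held 1.17 peaks on average, and so did the domain of Vtn, Sarm1 and Sebox (6128 bp), where Vtn encodes the plasma protein vitronectin. At the domain of Vtn the density was 58.3 CPM per kb of called peak in d22 and 58.8 in pbs, against 18.5 and 17.01 in the most fragmented domain, at Rxra.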
